A study of Oryza sativa with 12 samples.

Results

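The DREB1 genes of rice, also called CBF genes, encode AP2-domain transcription factors at the head of the plant cold response. In plants the transcripts of this family accumulate within hours of chilling, and the proteins bind a drought- and cold-response element upstream of target genes, among them dehydrins and enzymes that make protective sugars. Rice holds several family members, of which DREB1A and DREB1B are known as cold-induced regulators whose overexpression raises tolerance of cold, drought and salt. The genes described here are DREB1A, DREB1B, DREB1C, DREB1E and DREB1G. They were chosen by name: every probe set (a group of short probes that together read 1 transcript) paired with only 1 gene, where a listed name is that gene's symbol or synonym. All 5 genes were found, with 7 of the 57381 probe sets on the array; in all, 17905 genes have a probe set of their own.

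The 12 samples, each on its own GeneChip array, were RNA of shoots and leaves taken at the 4-leaf stage. In the ZH11 cultivar, lines OE2 and OE28, which overexpress the MYB factor OsMYB30, were compared with a single control line. For the Huayang cultivar, homozygous osmyb30 mutants 1 and 2 (mutant1 and mutant2) were compared with a single wild type line. Each of the 6 lines was sampled after 6 h at 4 °C and before cold, so that overexpression and mutant groups held 2 arrays at each time and the control and wild type groups held 1. The chamber at 4 °C gave 14 h of light and 10 h of dark a day. No temperature or light cycle is given for the samples before cold. The promoter of the overexpression lines and the number of plants in a sample are not given in the sources used here. The p-values below measure the spread between these lines, with the 2 arrays of a line taken as independent unless the line is named as a block. In the genotype tests the residual spread comes only from the overexpression and mutant lines, as the control and wild type groups hold 1 array each. No plants kept warm for 6 h are among the samples, so cold cannot be told apart from the later hour or from any change of light. The cultivars cannot be told apart from anything else that differed between the 2 sets of plants, the OsMYB30 genotypes of their lines included.

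The OsMYB30 transcript itself was not analysed here, so the labels of the lines were checked only by reporter genes carried on the array: RPTR-Os-A00196-1_s_at read at least 7940.3 in the overexpression lines and at most 113.5 in all others. Array medians lay between 34.7 and 37.2 intensity units. Leaf markers were bright everywhere: the small subunit of Rubisco (RBCS) read at least 21972.9, and 2 other leaf genes (CAB2R and RCA) at least 14747.1. Of 9 panicle and endosperm genes, 7 read at most 63.5 on every array, and GLUA2 and WX1 read up to 325.4 and 140.6. The root genes LSI2 and HMA2 read at most 10.6, but the summed intensity of 6 root genes was lower after cold than before it in each group. It was 871.1 and 1018.7 in the overexpression lines at 6 h, against 1377.3 and 1517.9 before cold, and 1216.2 and 1278.4 in the mutants at 6 h, against 2369.5 and 2433.9 before cold. It was 771.6 in the ZH11 control at 6 h, against 1182.2 before cold, and 2141.1 in the wild type at 6 h, against 2469.4 before cold. NAAT1 weighs most in these sums, at 301.7 to 1896.5 over the arrays, and none of the other root genes read above 305.8. With cold 3 of these 6 genes were called lower, 1 was not called and 2 were too dim to test, where 20.2% of all probe sets tested were called lower. Their part in the results was not tested, and in bulk tissue fewer cells of a type and less RNA per cell cannot be told apart.

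Each gene was read by its brightest probe set. Their locus names are LOC4347620 for DREB1A, LOC4347618 for DREB1B, LOC4330306 for DREB1G, LOC4336721 for DREB1E and LOC4339974 for DREB1C. In the RefSeq gene table of assembly ASM3414082v1, DREB1B and DREB1A lie on chromosome 9 with only the family member DREB1H between them. DREB1G lies on chromosome 2, DREB1E on chromosome 4 and DREB1C on chromosome 6. Probe sequences were not used here, so how far the probes of 1 member also read another was not tested. Readings up to 73.9, the highest of 62 probe sets for reporter genes that stayed dim on all arrays, are treated as dim: a fold change against a dim group is given as a lower bound, with dim readings raised to 73.9. Changes are differences of log2(intensity + 16) after quantile normalization, a scale that understates the change of dim genes, with standard errors (SE) and Benjamini-Hochberg adjusted p-values from limma over 34355 probe sets. A probe set is called at an adjusted p below 0.05. All 5 main probe sets passed the filter on low values, and the 2 other probe sets of DREB1C did not.

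The first comparison asks how the DREB1 genes responded to 6 h at 4 °C. DREB1A, DREB1B and DREB1G read at least 1015.1 after cold in every line, against at most 107.3 before it, DREB1E read 113.6 to 219.4 after cold, against a dim 38.4 to 64.5 before it, and DREB1C stayed close to the dim range. In all lines together (6 arrays against 6) limma called 5 of 5 genes higher, beside 35.1% of all probe sets called and 14.9% called higher (20.2% were called lower). Their median log2 change was 5.21, beside 0.01 over all probe sets tested. The genes were chosen with earlier results of these data known, so the count and the median only describe them.

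DREB1A read 6883.0 and 6812.2 in the overexpression lines OE2 and OE28 and 6150.9 in the ZH11 control after cold, against 79.4, 84.8 and 54.1 in the same lines before it. In the Huayang lines it read 6334.0 in mutant1, 5052.3 in mutant2 and 5923.3 in the wild type after cold, against 38.5, 45.7 and 29.0 before it. Each reading after cold lay far above each reading before it, and 4 of the 6 earlier readings were dim. DREB1A was higher by 6.50 (SE 0.12, adjusted p = 3.36e-13 in limma), or at least 67.0-fold with dim readings raised to the limit.

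DREB1B, its neighbour on the chromosome, read 9609.0 in OE2, 9289.4 in OE28 and 8078.8 in the ZH11 control after cold, against 93.0, 107.3 and 78.3 before it. In the Huayang lines it read 8873.0 in mutant1, 7321.5 in mutant2 and 8920.1 in the wild type after cold, against 67.1, 78.0 and 55.8 before it. The times did not overlap, and with 4 of 6 readings before cold above the dim limit this gene had the best measured starting level of the family. Its log2 change was 6.53 (SE 0.09, adjusted p = 5.79e-14 in limma), a 92.2-fold rise, or at least 87.5-fold with the dim readings raised.

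DREB1G read 1863.9 in OE2, 1657.3 in OE28 and 1015.1 in the ZH11 control after cold, against 32.3, 25.3 and 17.8 before it. In the Huayang lines it read 1532.4 in mutant1, 1245.5 in mutant2 and 1557.4 in the wild type after cold, against 20.7, 19.9 and 27.4 before it. All 6 readings before cold were dim, so the size of the rise has only a lower bound. It was at least 16.4-fold (measured log2 change 5.21, SE 0.14, adjusted p = 8.84e-12 in limma).

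**Figure D1:**
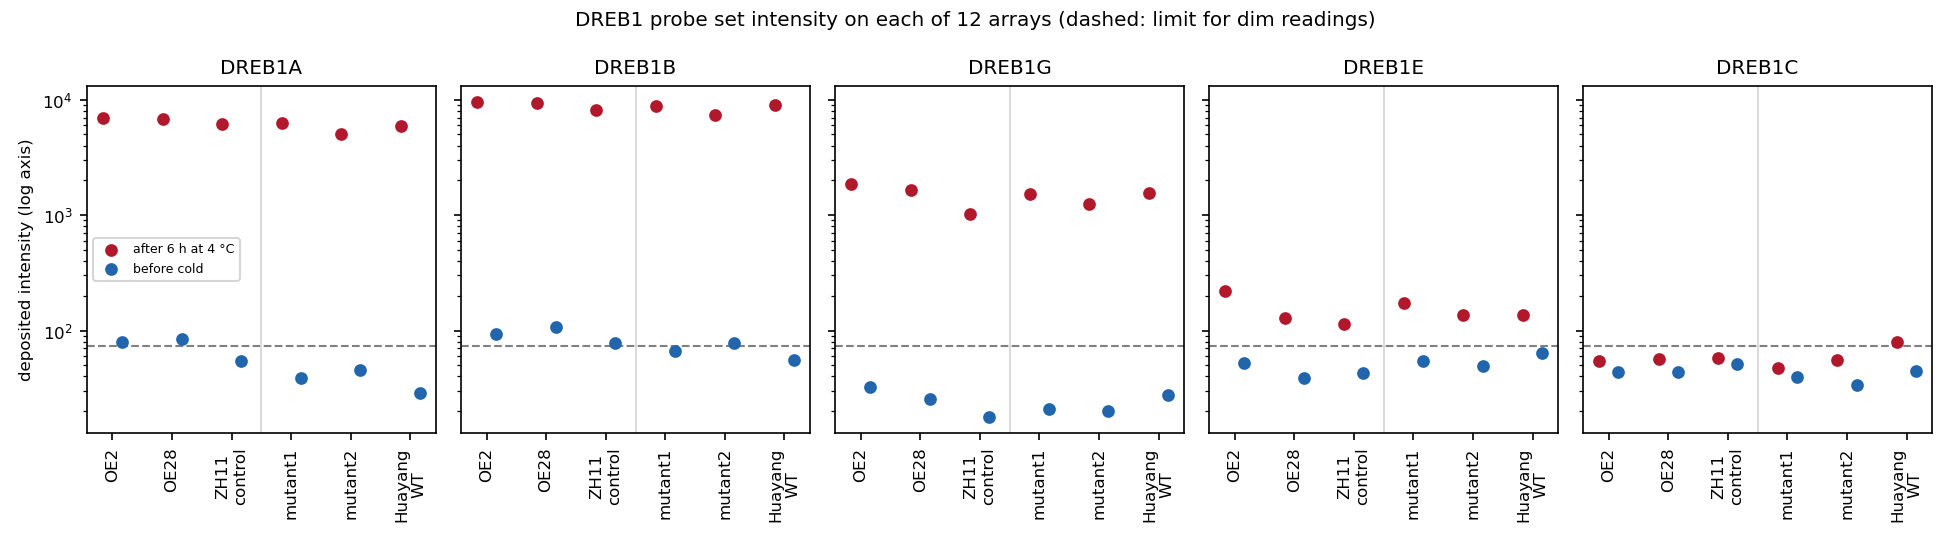
Deposited intensity (log axis) of the main probe set of each DREB1 gene on each array, by line, with 6 h at 4 °C in red left of before cold in blue; the dashed line is the dim limit of 73.9. DREB1A, DREB1B and DREB1G read at least 1015.1 on every array after cold, DREB1E between 113.6 and 219.4, and DREB1C lies between 33.4 and 79.3 at either time.

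DREB1E read 219.4 in OE2, 128.1 in OE28 and 113.6 in the ZH11 control after cold, against 51.8, 38.4 and 43.2 before it. In the Huayang lines it read 174.4 in mutant1, 135.4 in mutant2 and 136.4 in the wild type after cold, against 54.3, 49.3 and 64.5 before it. The times did not overlap, and all readings before cold were dim. The rise was at least 1.89-fold (measured log2 change 1.37, SE 0.13, adjusted p = 3.6e-06 in limma).

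DREB1C was read close to background at both times. It read 54.9 in OE2, 56.4 in OE28, 58.3 in the ZH11 control, 46.9 in mutant1, 56.0 in mutant2 and 79.3 in the wild type after cold, against 44.0, 43.6, 51.3, 39.7, 33.4 and 44.3 in the same lines before it. Only the wild type after cold passed the dim limit, and the times overlapped. The measured change of 0.35 (SE 0.10, adjusted p = 0.0137 in limma) was called, but with dim readings raised to the limit 0.02 was left, so its size is not established. Its 2 other probe sets read between 5.6 and 8.9 on all arrays.

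Line by line, each of the 5 genes was higher after cold in 6 of 6 lines. With dim readings raised, the change of DREB1A ran from 5.79 in mutant2 to 6.22 in OE2, and that of DREB1B from 6.25 in OE28 to 6.63 in the wild type. DREB1G ran from 3.57 in the ZH11 control to 4.38 in OE2, and DREB1E from 0.60 in the ZH11 control to 1.44 in OE2. Within each gene the lines thus lay within 1 log2 unit of each other.

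**Figure D2:**
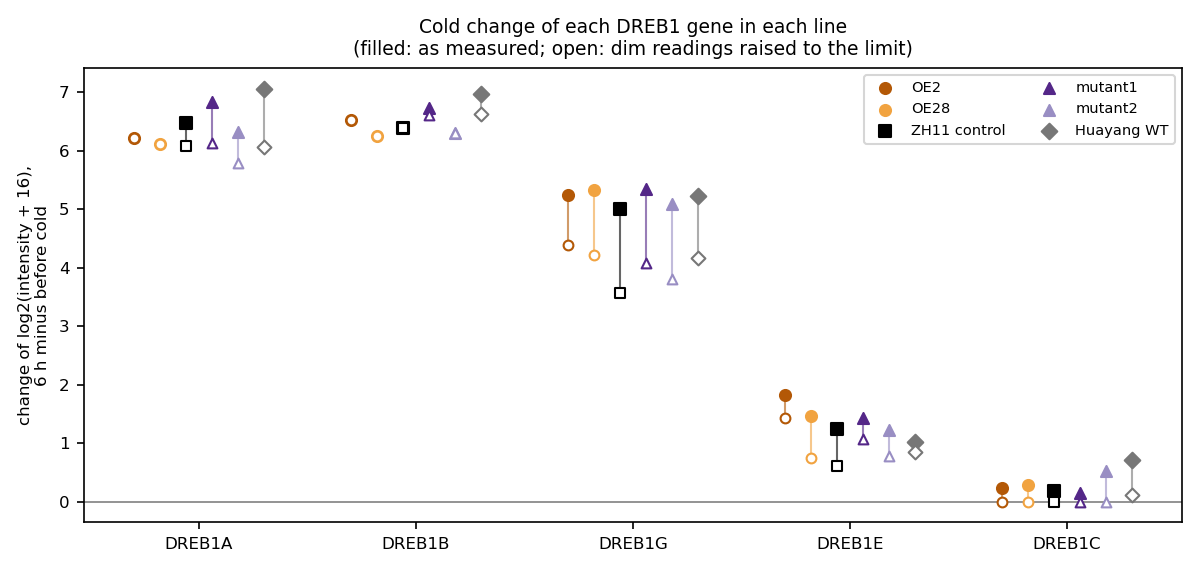
Change of log2(intensity + 16) between 6 h at 4 °C and before cold for each DREB1 gene in each of 6 lines; filled symbols are the measured change and open symbols the change with dim readings raised to 73.9. The open symbols of DREB1A and DREB1B lie between 5.79 and 6.63 in every line, those of DREB1G between 3.57 and 4.38, and those of DREB1E between 0.60 and 1.44.

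The cold response was also fitted within each cultivar, 3 arrays against 3. In the ZH11 lines 4 of 5 genes were called higher (20.0% of all probe sets were called, 7.46% higher), and in the Huayang lines 5 of 5 (19.3% called, 7.25% higher). DREB1C was the gene not called in ZH11 (0.23, SE 0.13, adjusted p = 0.247 in limma), and in Huayang it was called at 0.46 (SE 0.13, adjusted p = 0.0299). That call was lost without the wild type array at 6 h (0.28, adjusted p = 0.0761), without mutant1 before cold (adjusted p = 0.0728) or without mutant2 before cold (adjusted p = 0.114). For DREB1A the rise was at least 70.5-fold in ZH11 and at least 63.7-fold in Huayang, and for DREB1G at least 16.6-fold and at least 16.2-fold. None of the 5 genes was called in the test of the difference between the cultivars' responses (limma, 0.102% of all probe sets called); 1 of them, DREB1A, had an unadjusted p below 0.05. Its difference in response, ZH11 minus Huayang, was -0.47 as measured (95% interval -0.92 to -0.01, adjusted p = 1.00) and 0.15 with dim readings raised. For DREB1B the interval was -0.65 to 0.09 and for DREB1G -0.65 to 0.58.

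The levels of the cultivars' lines were also compared at each time. The ZH11 lines include both overexpression lines and the Huayang lines both mutants, so a difference here can mix cultivar with OsMYB30 genotype. After 6 h none of the 5 genes was called between ZH11 and Huayang lines (10.6% of all probe sets called), no unadjusted p was below 0.05, and the differences ran from -0.07 to 0.20. Before cold, DREB1A was the only one called (5.26% of all probe sets called, 2.28% higher in ZH11). Its difference was 0.67 (SE 0.15, adjusted p = 0.0197 in limma), but the means of both cultivars' lines lay at or below the limit and 0.06 was left with dim readings raised, so no fold is given. The call was lost without OE2 before cold (0.62, adjusted p = 0.0693), without OE28 before cold (0.57, adjusted p = 0.0879) or without the wild type before cold (0.54, adjusted p = 0.0881). DREB1B differed by 0.37 (SE 0.12, adjusted p = 0.118).

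DREB1A and DREB1B ordered the 6 lines alike before cold. For both, OE28 was highest, then OE2, the ZH11 control, mutant2, mutant1 and the wild type. For DREB1A this ran from 84.8 to 29.0, and for DREB1B from 107.3 to 55.8. Of these 6 readings, the lowest 4 of DREB1A and 2 of DREB1B were dim, and shared reading by the probes of both genes was not tested. Neighbours in that order ranged from nearly level, as DREB1B in the ZH11 control and mutant2 at 78.3 and 78.0, to apart, as DREB1A in OE2 and the ZH11 control at 79.4 and 54.1. DREB1E put the wild type highest, at 64.5, and OE28 lowest, at 38.4, with all its readings dim. After cold OE2 was highest for DREB1A, DREB1B, DREB1G and DREB1E, mutant2 was lowest for DREB1A and DREB1B, and the ZH11 control was lowest for DREB1G and DREB1E.

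The second comparison asks whether the DREB1 genes differed between the OsMYB30 overexpression lines and the ZH11 control. Only DREB1G was called, over both times together (4 arrays against 2), where 4.06% of all probe sets were called and 2.17% higher. After cold DREB1G read 1863.9 and 1657.3 in the overexpression lines, against 1015.1 in the control, which is 1.84 and 1.63 times the control. Before cold it read 32.3 and 25.3 in the overexpression lines, against 17.8 in the control, all dim. Both overexpression lines lay above the control at each time. The control after cold also lay below the 3 Huayang arrays, at 1245.5 to 1557.4. The mean difference was 0.60 (SE 0.11, 95% interval 0.34 to 0.85, adjusted p = 0.0306 in limma), or 0.37 with dim readings raised. The call was lost with the line as a random block (arrays of the same line taken as correlated, adjusted p = 0.0644). It was also lost without OE2 before cold (0.54, adjusted p = 0.0748), without OE2 at 6 h (0.56, adjusted p = 0.104), without OE28 at 6 h (0.64, adjusted p = 0.0517), and without mutant1 or mutant2 before cold, which enter only the estimate of spread (adjusted p = 0.0530 and 0.0532).

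At each time alone none of the 5 genes was called (limma, 0.311% of all probe sets called after 6 h and 0.571% before cold), and 1 gene after 6 h and 2 before cold had an unadjusted p below 0.05. After 6 h (2 arrays against 1) DREB1G differed by 0.73 (SE 0.16, 95% interval 0.38 to 1.09, adjusted p = 0.149). DREB1E differed by 0.49 (95% interval -0.13 to 1.11), and its overexpression lines stood apart, at 1.93 times the control in OE2 and 1.13 times in OE28. DREB1B read 1.19 and 1.15 times the control in OE2 and OE28 (0.23, 95% interval -0.09 to 0.55), and DREB1A 1.12 and 1.11 times (0.17, 95% interval -0.16 to 0.49).

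Before cold DREB1A read 79.4 in OE2 and 84.8 in OE28, against a dim 54.1 in the control (0.47, 95% interval 0.14 to 0.80, adjusted p = 0.131 in limma). Raising dim readings left 0.09. DREB1B was 1.19 and 1.37 times the control (0.24, 95% interval -0.08 to 0.56). DREB1C lay below the control in both lines at both times, all of it dim. As a mean of both times DREB1A differed by 0.32 (SE 0.10, adjusted p = 0.106) and DREB1B by 0.24 (SE 0.10, adjusted p = 0.186).

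Whether overexpression changed the response to cold itself was tested as the difference of both responses. None of the 5 genes was called, none had an unadjusted p below 0.05, and 0 of all probe sets were called in limma. The response of DREB1G was 5.28 in the overexpression lines and 5.01 in the control, a difference of 0.27 (95% interval -0.23 to 0.78). That of DREB1B was 6.38 in the overexpression lines and 6.40 in the control, a difference of -0.01 (95% interval -0.46 to 0.44). With dim readings raised, the difference for DREB1G was 0.73, since all its readings before cold are then level. The interval leaves room for a difference of up to 0.78.

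The third comparison asks the same of the osmyb30 mutants and the Huayang wild type. None of the 5 genes was called in limma at either time, as a mean of both, or in the difference of responses. Over all probe sets 0.0204% were called after 6 h, 0.00291% before cold, 0.0262% as a mean and 0 in the difference of responses, and 1 of the 5 genes had an unadjusted p below 0.05 in each of these tests. The wild type read 3821.8 and 2658.5 for RPTR-Os-K01193-1_at, a reporter-gene probe set that read 13835.2 to 17781.9 in the mutants and at most 64.3 in the ZH11 control. In the overexpression lines this probe set read 11860.8 to 12539.4. Its part in these comparisons was not tested.

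After 6 h mutant1 lay above the wild type for DREB1A and DREB1E and below it for the other genes, and mutant2 lay below it for all 5. DREB1A was 1.07 times the wild type in mutant1 and 0.853 times in mutant2 (-0.10, 95% interval -0.42 to 0.23). DREB1B was 0.995 and 0.821 times the wild type (-0.16, 95% interval -0.48 to 0.16), and DREB1G was 0.984 and 0.800 times (-0.22, 95% interval -0.58 to 0.13). For these 3 genes mutant2 was the lower of the mutants. DREB1E was 1.28 times the wild type in mutant1 and 0.993 times in mutant2 (0.08, 95% interval -0.54 to 0.70).

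The lowest unadjusted p after 6 h was that of DREB1C, at 46.9 and 56.0 in the mutants, against 79.3 in the wild type (-0.54, SE 0.12, adjusted p = 0.29 in limma). With dim readings raised to the limit -0.12 was left. Before cold DREB1A read 38.5 and 45.7 in the mutants, against 29.0 in the wild type, all dim (0.39, adjusted p = 0.929). The response of DREB1A to cold was 6.57 in the mutants and 7.06 in the wild type, a difference of -0.49 (95% interval -0.95 to -0.02, adjusted p = 1.00), and -0.10 with dim readings raised.

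**Figure D3:**
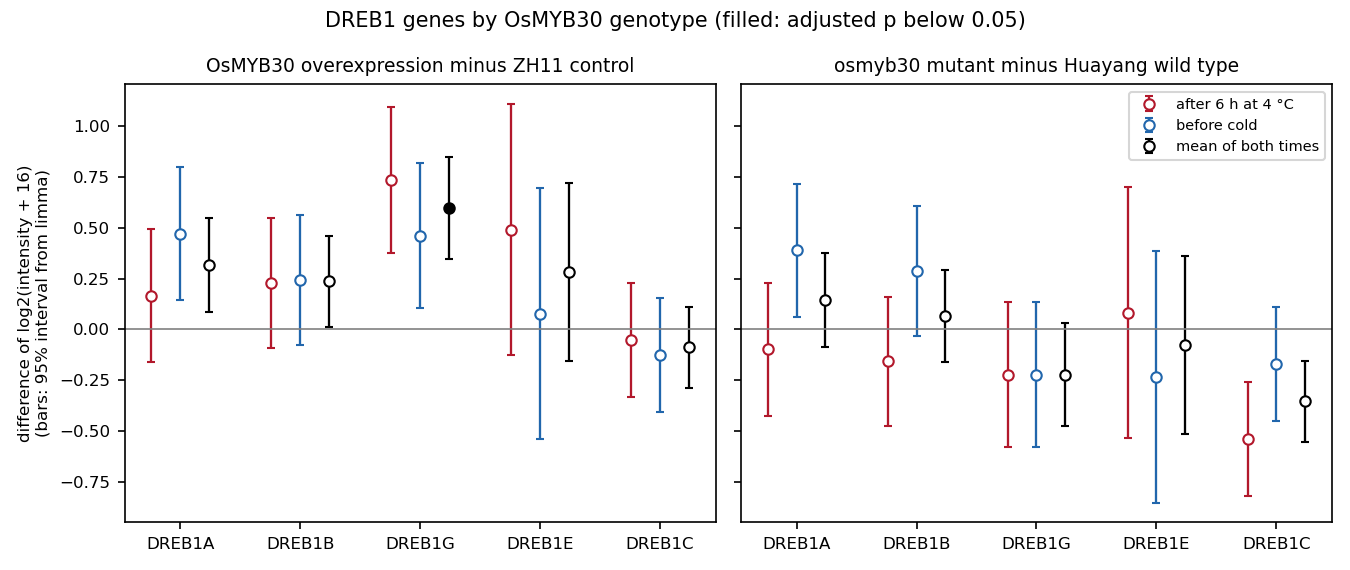
Differences of log2(intensity + 16) with 95% intervals from limma for the 5 DREB1 genes, overexpression minus ZH11 control on the left and mutant minus Huayang wild type on the right, after 6 h, before cold and as the mean of both times. The mean of DREB1G in the overexpression lines, at 0.60, is the one filled symbol (adjusted p below 0.05).

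Other genes around the DREB1 factors were taken from lists of names. Of 8 other DREB genes found, 5 (DREB1F, DREB1H, DREB1I, DREB1J and DREB2C) had no probe set of their own and were not analysed here. DREB2B, a related factor known for drought and heat responses in rice, was higher with cold, at 172.8, 223.1 and 245.4 (lowest, median and highest) after cold, against 105.2, 137.4 and 176.1 before it (0.71, SE 0.07, adjusted p = 7.46e-06 in limma). DREB2A read 47.7 to 62.1 after cold, against 59.2 to 86.9 before it, mostly dim. It was not called (-0.18, adjusted p = 0.0855), though it was with the line as a block (adjusted p = 0.0326). The block raised the calls over all probe sets too, to 16056 for cold in all lines, against 12044 without it. DREB2D read at most 6.5 and was not tested.

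Among 12 measured genes that act on DREB1 genes or beside them in the cold response, 5 were called higher with cold, 1 lower and 6 were not called, with a median of 0.11 (0.01 over all probe sets, of which 35.1% were called). MYB4, a MYB factor of cold tolerance in rice, read 5056.5, 6209.4 and 7024.9 (lowest, median and highest) after cold, against 250.6, 312.7 and 381.5 before it. Its 19.7-fold rise (log2 change 4.30, SE 0.10, adjusted p = 3.94e-12 in limma) was the largest of this list, and the times did not overlap. WRKY76, a WRKY factor whose overexpression raises cold tolerance in rice, was higher by 2.14 (SE 0.28). Its readings overlapped across the cultivars, at 462.3 to 1952.5 after cold against 79.0 to 735.1 before it, but not within either. ZH11 lines read 462.3 to 1197.7 after cold against 79.0 to 130.0 before it. Huayang lines read 1258.3 to 1952.5 after cold against 342.4 to 735.1 before it. SAPK9, a SnRK2 protein kinase, was higher by 0.37 (SE 0.12), while the calmodulin-like gene CML3 was lower by 0.41 (log2 change -0.41, SE 0.09). MYBS3, which represses DREB1 genes during longer cold in rice, was higher by 0.16 (SE 0.04). With the line as a block PHYB and PRR37 were called too (adjusted p = 0.0395 and 0.0366). For cold in all lines that setting called 16056 probe sets, against 12044 without it, so these calls do not set the genes apart.

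Of 11 genes known as cold-induced or as targets of DREB1 factors, 3 were higher, 1 was lower and 7 were not called, with a median of -0.02. Over all probe sets 35.1% were called, 14.9% higher and 20.2% lower, so the count does not set this list apart. TPP1, a trehalose-6-phosphate phosphatase, read 3543.9, 4555.9 and 5442.3 after cold, against 265.4, 312.6 and 459.4 before it, a 13.6-fold rise (3.76, SE 0.06, adjusted p = 5.93e-14 in limma). TPP1 was also higher in ZH11 than in Huayang lines, by 0.44 after cold (adjusted p = 0.00603 in limma) and by 0.47 before it (adjusted p = 0.00627). Of the 11 genes, 2 were called higher and 1 lower in ZH11 after cold, and 1 higher and 1 lower before it. Of the 12 regulators, 0 were called higher and 3 lower after cold, and 1 higher and 3 lower before it. Over all probe sets 10.6% were called after cold and 5.26% before it. The dehydrin gene LIP9 rose 1.96-fold (0.97, SE 0.14, adjusted p = 0.000165). The membrane peptide gene LTI6B was higher by 0.21 (SE 0.04), and LTI6A, of the same family, was lower (-0.24, SE 0.05). The dehydrin genes RAB16B, RAB16C, RAB16D, RAB21 and RAB25 lay between -0.23 and 0.01 and were not called. RAB16D and RAB25 were dim on every array, at most 55.2 and 69.0. The 95% intervals were -1.15 to 0.68 for RAB21, -0.91 to 0.59 for RAB16B and -0.38 to 0.40 for RAB16C. They leave room for a change either way. Between overexpression lines and control, over both times together, 1 of the 12 (SAPK9) and 1 of the 11 (LEA3, a late embryogenesis abundant protein gene) were called higher, where 2.17% of all probe sets were. Both calls were lost with the line as a block (adjusted p = 0.0965 and 0.0876 in limma). SAPK9 differed by 0.52 (SE 0.11). LEA3 read 472.1 and 450.7 in the overexpression lines after cold and 385.0 and 1171.1 before it, against a dim 45.2 and 36.6 in the control, while the 6 Huayang arrays read 267.7 to 1297.1. None of the 12 or of the 11 was called between mutants and wild type.

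**Figure D4:**
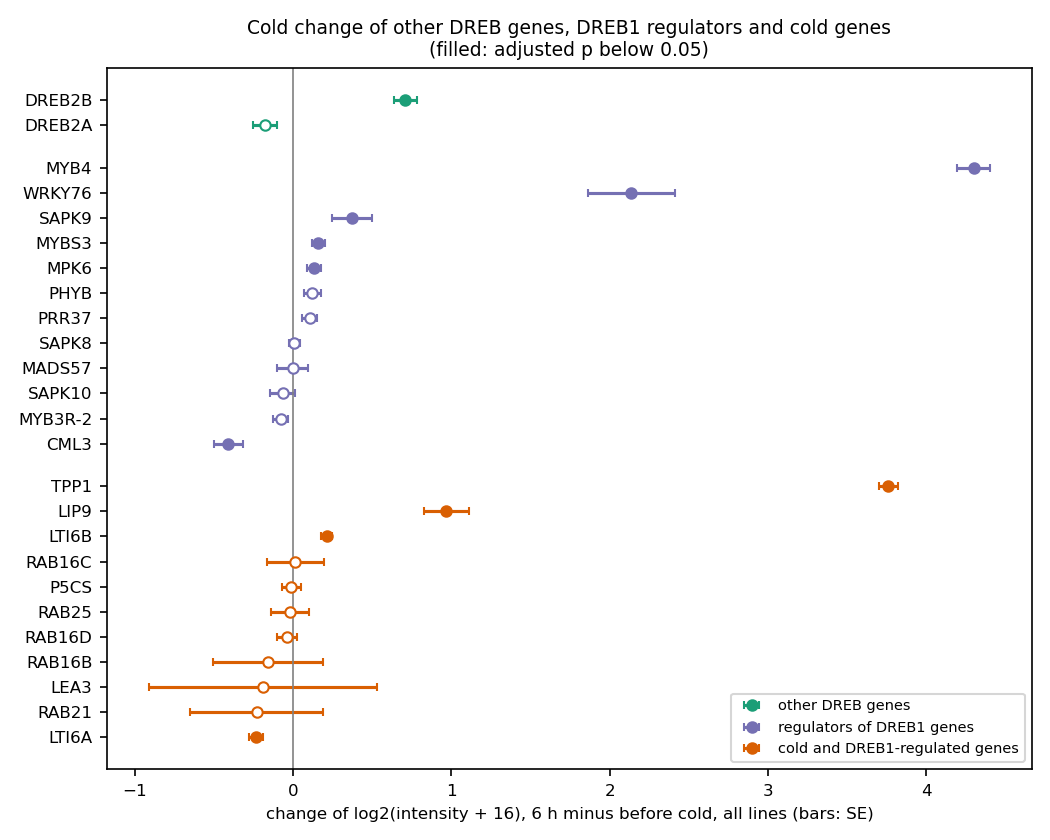
Change of log2(intensity + 16) with cold in all lines, with SE, for the tested genes of the lists of other DREB genes, regulators and cold genes; filled symbols are called at an adjusted p below 0.05. MYB4 at 4.30 and TPP1 at 3.76 lie far to the right, and most other genes lie within 1 of 0.

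The genes with the most similar pattern were sought among 2709 probe sets of other genes with a published name, by Pearson's r over the 12 arrays. These arrays fall into 2 sets by time, which alone gives a high r to any gene that rises with cold, so the values only describe. ABA8OX1, an abscisic acid hydroxylase gene, was nearest to DREB1B (r = 0.999) and to DREB1A (r = 0.998), at 3150.9 to 4861.2 after cold against 63.5 to 101.5 before it. Next to DREB1A came TPP1 (0.996) and the jasmonate repressor gene JAZ10 (0.995), and next to DREB1B the MYB factor gene MYB2 (0.998) and JAZ10 (0.997). DREB1G was nearest to MYB2 (0.996), then the protein phosphatase gene OsPP2C32 (0.995) and ABA8OX1 (0.995). DREB1E was nearest to the chitinase gene Cht6 (0.983), the histone demethylase gene JMJ706 (0.976) and IAA23 (0.967), an auxin-response repressor gene. JMJ706 changed little in level, at 343.4 to 385.8 after cold against 309.6 to 353.8 before it. DREB1C was nearest to the heat shock factor gene HSF12 (0.916), the haemoglobin gene NSHB1 (0.904) and OsPSY1 (0.859), a phytoene synthase gene. DREB1C was dim on every array but the wild type after cold, so these values of r rest on dim readings. With the mean of each time taken out, r of ABA8OX1 fell to 0.702 with DREB1B, 0.686 with DREB1A and 0.186 with DREB1G. That of MYB2 fell to 0.336 with DREB1G and 0.150 with DREB1B, and that of JAZ10 to 0.297 with DREB1A and 0.265 with DREB1B. TPP1 kept 0.706 with DREB1A. Over all pairs named here it ran from 0.150 to 0.824 (Cht6 with DREB1E).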

How the data were processed

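Intensity values, 1 per probe set and array on a linear scale, were used as deposited by the authors; how they were summarised and normalized is not given in the sources used here. By the platform's annotation, 22436 probe sets had 1 gene, 95 had several and 34727 had none; 123 control probe sets stayed out. Symbols and synonyms came from RefSeq. Intensities were taken as log2(value + 16) and quantile normalized, then filtered at the 40th percentile of the probe sets' means. The limma package 3.58.1 (lmFit, eBayes with trend; R 4.3.3) fitted cultivar by time for cold and cultivar, and 8 group means with 4 residual degrees of freedom for genotype, where a lone array is taken to vary as the replicated groups do. Simulated data were used to test the fits. Their noise was independent on each array with no effect of line, so they did not test what arrays of the same line share.

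The line sampled at both times gives a pairing: a line's deviations at 6 h and before cold correlated at 0.517 for overexpression lines and at 0.429 for mutants. Each list gene was read by its brightest probe set. The genes and lists were chosen with earlier results of these data known. Genes named are all 5 DREB1 genes, up to 3 called list genes each way by size of change, and the 3 most alike genes; MYBS3, PHYB, PRR37, the dehydrins and the genotype calls were added after their values were seen. The number of arrays limits the precision. Alternatives were other scalings, filters, pseudocounts, eBayes options, line as a block, averaged probe sets, arrays of 1 cultivar, 8 group means for cold, and each array left out.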

Additional observations from a re-analysis of the deposited data

Results flagged for a closer look

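Among the 6 arrays at 6 h, the Huayang wild type read 79.3 for DREB1C, a gap to the next array of 0.648 of the whole range, above Dixon's limit of 0.625 for 6 arrays. It was 1 of 10 sets of 6 arrays looked at (5 genes at 2 times), and chance flags about 1 in 20. The other 5 arrays read 46.9 to 58.3, within the dim range. None of 15 tests of a difference between responses to cold was called for the 5 genes in limma.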

How the results depend on the processing

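The cold calls of DREB1A, DREB1B, DREB1E and DREB1G were kept in all lines and in each cultivar under every alternative run. Over the alternatives other than left-out arrays, their change in all lines ran from 5.73 to 6.88, 5.93 to 6.78, 0.94 to 1.61 and 4.11 to 5.88, the lowest with a pseudocount of 64 and the highest with 1. Without each array in turn 5 genes were called in all lines, 4 in ZH11 lines and 4 to 5 in Huayang lines. DREB1C did not pass the 60th percentile filter, nor with its probe sets averaged, and was not called in Huayang lines when only Huayang arrays were fitted (adjusted p = 0.0794). For overexpression averaged over both times, where 1 gene was called, 0 were called with the replicate block (line at random), 2 with ZH11 arrays alone (DREB1A was added, adjusted p = 0.0488), and 0 to 1 without each array in turn. Between cultivars before cold, where 1 was called, 0 were called with a pseudocount of 64 and 0 to 1 without each array in turn. Over all probe sets, the replicate block moved the calls of that overexpression mean to 425, against 1395 without it, and of cold in ZH11 and Huayang lines to 12060 and 10892, against 6874 and 6621. It changed no other call of the 5 genes.

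Changes of direction came only in differences that were not called. With a pseudocount of 64 the sign turned in the difference of cold responses for DREB1G between cultivars (0.0017) and in mutants (-0.11) and for DREB1B in overexpression lines (0.063); with a pseudocount of 1 for DREB1G in overexpression lines (-0.0072); and with median centring for DREB1E between cultivars after 6 h (-0.011). Without each array in turn, the difference of responses ran from -0.20 to 0.21 for DREB1G between cultivars, from -0.14 to 0.14 for DREB1G in mutants and from -0.11 to 0.088 for DREB1B in overexpression lines. Likewise, differences between cultivars after 6 h ran from -0.0045 to 0.17 (DREB1B), -0.20 to 0.11 (DREB1C), -0.23 to 0.19 (DREB1E) and -0.12 to 0.28 (DREB1G), and before cold from -0.066 to 0.22 (DREB1G). DREB1E in overexpression lines before cold ran from -0.082 to 0.24. In the mutants DREB1A after 6 h ran from -0.27 to 0.070, DREB1E after 6 h from -0.068 to 0.23 and DREB1B as a mean from -0.0038 to 0.13. The cause was not tested. A genotype contrast could not be fitted without its single control or wild type array.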
